A study of Mus musculus with 17 samples.

Results

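Germinal centre (GC) B cells that still carried IgM or IgD were compared with class-switched GC B cells of the same mice, 48 h after treatment with anti-DEC-OVA. The members were selected on measured values: hashtag counts that placed a cell in 1 treated mouse, at least 200 detected genes, under 10% mitochondrial UMIs, and exactly 1 productive heavy-chain contig. The constant region of that contig then set the class, with IGHM or IGHD called unswitched and any other named heavy-chain constant gene called switched. This gave 4081 cells, 378 unswitched and 3703 switched, of 69340 cells in the 6 pools of the series. The isotypes that define the classes are therefore no finding here. Genes of the heavy-chain locus were left out of the gene comparison, though not of the UMI counts per cell.

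The study asked how antibody genes mutate while GC B cells proliferate in a burst. Wild-type CD45.1 hosts primed with ovalbumin (OVA) received B1-8hi B cells, whose knocked-in heavy chain paired with a lambda light chain binds the hapten NP, and were immunised in the footpad with NP-OVA in alum. Only a small share of the transferred cells carried the receptor DEC-205 (encoded by Ly75) and an mCherry division reporter driven by Vav-tTA, and the rest were Ly75-/-. Anti-DEC-OVA, an antibody that delivers OVA to DEC-205-bearing cells, was injected on day 7, and DEC-205+ B1-8hi GC B cells of lymph nodes were sorted on day 9. The treated group held 9 mice, 6 in a larger and 3 in a smaller experiment. The untreated group of day 9 held 6 mice, 4 and 2 in the same experiments, with the same transferred cells, priming and immunisation but no anti-DEC-OVA. Each experiment was 1 pool of cells from all its mice, so both classes of a mouse came from the same droplets and library.

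In a GC, B cells divide and mutate their antibody genes in the dark zone, then compete in the light zone for antigen and for help from T follicular helper cells. They take up antigen through the B cell receptor, show its peptides on MHC class II, and are signalled to by CD40 and cytokine receptors, which leads to induction of Myc and of cell growth. Class switching replaces the constant region of IgM by that of IgG, IgE or IgA without changing the variable region, and does not undo itself. IgM cells and IgG cells of one clone can therefore share the same antigen-binding site.

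Of 6053 treated cells that passed the cell filter, 4149 had 1 productive heavy chain, of which 68 lacked a named constant gene, and 1904 had none. Cells with no heavy chain were shallower, at a median of 6970 UMIs against 15351 in cells with 1 heavy chain, and their part in the results was not tested. Switched cells were almost all IGHG1, 3539 of 3703 cells, 145 were IGHE, and 9, 5 and 5 were IGHG2B, IGHG2C and IGHG3. The unswitched class held 369 IGHM and 9 IGHD cells. IGHV1-72, the V segment of the B1-8hi heavy chain, was used by 96.0% of unswitched and 99.9% of switched cells. The full B1-8hi pairing with its lambda light chain was found in 92.6% and 95.2% of cells. The pools shared 94 cell barcodes, and 0 of these were classed in both.

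Each treated mouse gave 16 to 80 unswitched cells (median 32) and 351 to 530 switched cells (median 381). The UMIs of each mouse, over all genes, ran from 186673 to 1040980 in the unswitched and from 6128060 to 9819520 in the switched class. The unswitched sums therefore carry more counting error. The sums that were tested leave out heavy-chain genes. Both classes expressed the markers of GC B cells. The summed level of 14 GC identity genes was 3719.6 to 4293 CPM (UMIs scaled to a common library size) in unswitched and 3643 to 4187 in switched sums. Of 12 T cell markers, Lck had 399 UMIs over the 9 mice in the unswitched class, Cd28 had 3, Cd3d 2 and Cd4 1, and Cd3e, Cd3g, Cd8a, Il7r and Icos had none. Only 8 of the 12 had a UMI in any sum. Trac, Trbc1 and Trbc2 did not, and could not be checked. Of 13 myeloid and dendritic cell markers, Cst3 had 669 UMIs over the 9 mice, Lyz2 5, Adgre1 4 and Itgam, Itgax, C1qa, C1qc and Clec9a 1 each, and Csf1r, C1qb, Fcgr1, S100a8 and S100a9 had none. The summed level of the T cell list was 55.1 to 161 CPM in unswitched and 46.2 to 65.7 in switched sums, and that of the myeloid list 94.6 to 199 and 115 to 191.

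The size of the unswitched class is set by the same constant-region calls that chose the cells, and is given as a description. It made up 4.08% to 18.6% of classed cells in the 9 treated mice (median 8.06%) and 15.9% to 31.0% in the 6 untreated mice of day 9 (median 23.4%). Only the highest treated mouse, at 18.6%, lay within the untreated range. The mean share was 14.6 percentage points lower with treatment, and the difference was -16.0 points in the larger and -12.0 points in the smaller experiment. No test is given. At the other times the share was 13.7% to 21.5% on day 7, 24.3% to 89.6% in untreated mice of day 10 and 4.78% to 51.5% in treated mice of day 10, where 1 mouse held the highest value and the others stayed at or under 10.5%. These are shares of cells whose heavy chain was read. Fewer unswitched cells and fewer reads of their heavy chain cannot be told apart in them. Among classed cells of treated mice on day 9, heavy-chain contigs held a median of 63 UMIs in unswitched and 47 in switched cells. In untreated mice of day 9 the medians were 68 and 34. Cells with no contig have no such value, and the part of contig reads in the shares was not tested.

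**Figure D1:**
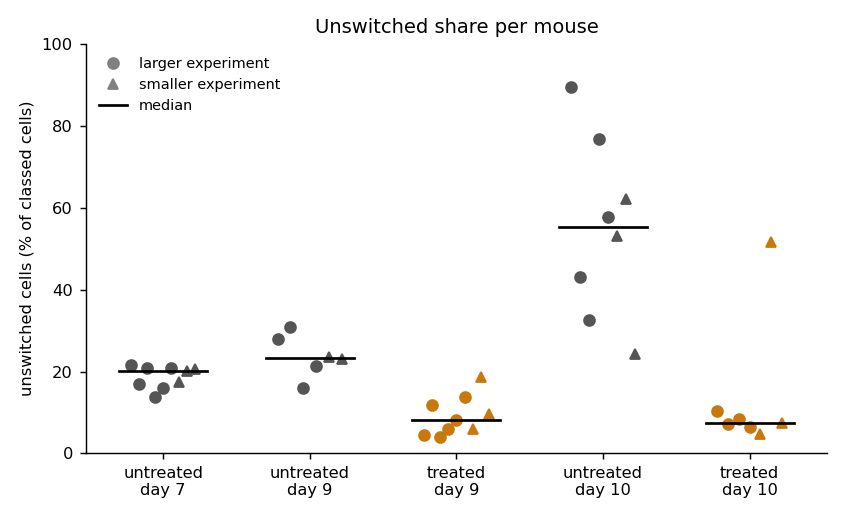
Unswitched cells as a percentage of classed cells (vertical axis), 1 point per mouse, for the 5 groups on the horizontal axis. Circles are mice of the larger and triangles of the smaller experiment, orange marks treated mice, and black lines are medians. The 9 treated mice of day 9 lie at 4.08% to 18.6%, against 15.9% to 31.0% in untreated mice of the same day.

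Within treated mice the unswitched cells held fewer UMIs. These were counted over all genes, heavy-chain genes included, and the part of heavy-chain transcripts was not tested. The filters on detected genes, mitochondrial share and a heavy-chain contig also bear on UMIs per cell. Their part in the difference was not tested either. The median cell of a mouse held 9961 to 13460.5 UMIs in the unswitched class (median over mice 10382) and 14200 to 17153 in the switched class (median 15815), with no overlap. The ratio of unswitched to switched medians was 0.682 on average and below 1 in 9 of 9 mice (0.590 to 0.785; exact sign-flip permutation p = 0.00391, the smallest that 9 mice allow). Detected genes per cell went the same way, with means over mice of 3369 and 4120.1, given with no test because cells were selected on this value. In untreated mice the medians of the classes were alike, at 8572.5 and 8420.0 UMIs. Their mean ratio was 1.01 (0.909 to 1.24), and it was below 1 in 5 of 6 mice. The class difference in UMIs differed between treated and untreated mice (-0.56 on the log2 scale, exact permutation p = 0.000476). Mitochondrial UMIs were 0.18 percentage points higher in unswitched cells on average, in 9 of 9 treated mice, with means of 0.047 points in the larger and 0.43 points in the smaller experiment. This share also selected the cells, so it is given with no test.

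Phase calls differed between the classes. Phases were assigned from transcripts of S and of G2/M, and a cell with neither was counted as G1. In treated mice 10% to 45.8% of unswitched cells (median 31.25%) and 7.12% to 18.6% of switched cells (median 14.4%) were in G1. The G1 share was higher in the unswitched class in 9 of 9 mice, by 17.5 ± 7.77 points (SD, exact sign-flip p = 0.0117 after adjustment over 3 phases). The G2/M share was 35.8% ± 9.94 (SD, 9 mice) against 49.7% ± 2.88, lower in 8 of 9 mice (exact adjusted p = 0.0117), and in mouse 8 it was 0.08 points higher. The S share was 33.2% ± 7.31 against 36.7% ± 3.23, a difference of -3.48 points that did not pass the test (exact adjusted p = 0.0820).

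Depth differed between the classes, so each cell was also thinned to 5447 UMIs, which left out 13.5% of unswitched and 3.19% of switched cells. The G1 shares were then 27.2% ± 10.8 and 14.97% ± 3.43, and the difference of 12.2 points stayed past the threshold. In untreated mice the G1 share was 39.4% ± 11.3 in unswitched and 42.2% ± 10.8 in switched cells, higher in the unswitched class in only 2 of 6 mice. The class difference itself differed with treatment by 20.3 points for G1 and -18.4 points for G2/M (exact permutation, adjusted p = 0.00143 for both), and by -1.93 points for S (exact adjusted p = 0.531).

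**Figure D2:**
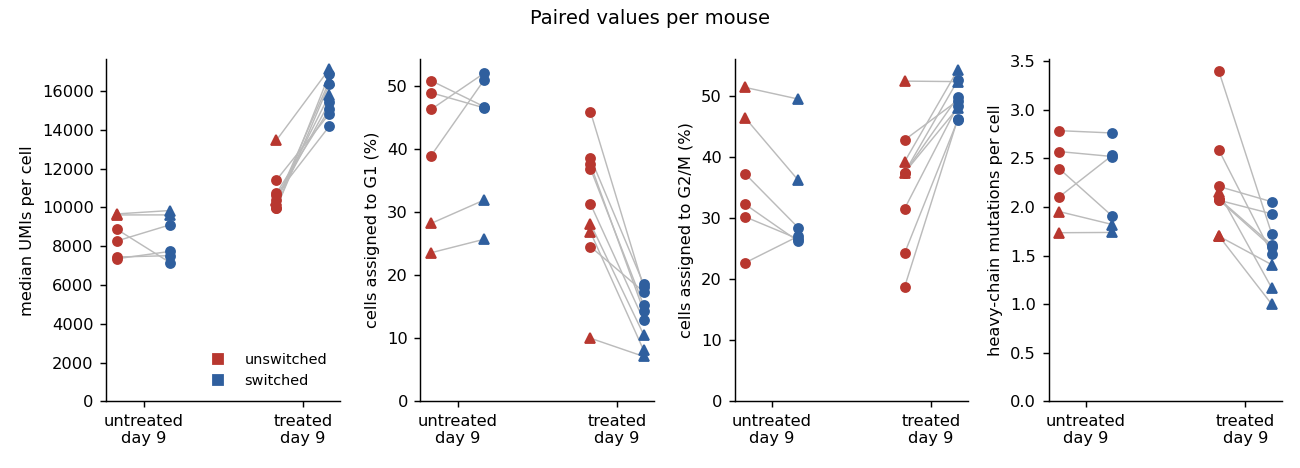
Median UMIs per cell, percentage of cells in G1 and in G2/M, and mean heavy-chain mutations per cell (vertical axes) in unswitched (red) and switched (blue) cells, with a grey line joining the classes of each mouse, for 6 untreated and 9 treated mice of day 9. In treated mice every line rises to the right for UMIs and falls for G1 and for heavy-chain mutations, while the lines of untreated mice run in both directions.

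Heavy chains of unswitched cells carried more mutations. Bases that differed from the most frequent B1-8hi sequence of day 7 were counted as mutations over 361 heavy-chain and 328 light-chain bases in cells with the B1-8hi pairing. Unswitched cells held 2.18 to 4.33 mutations per cell (median over mice 2.82) and switched cells 1.56 to 2.99 (median 2.24). The count was higher in the unswitched class in 8 of 9 mice, by 0.69 ± 0.63 (SD, exact sign-flip p = 0.0117), and mouse 5 went the other way, by -0.25. The difference was 0.70 in the larger experiment alone (5 of 6 mice, exact sign-flip p = 0.0938) and 0.67 in the smaller (3 of 3 mice). Cells with no difference from that sequence made up 15.1% ± 8.76 of unswitched and 25.5% ± 8.75 of switched cells, fewer in the unswitched class in 9 of 9 mice (exact p = 0.00391).

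The difference lay in the heavy chain, at 2.22 against 1.55 mutations per cell, higher in 9 of 9 mice (0.67 ± 0.50, SD; exact p = 0.00391). Light chains held 0.71 and 0.68 (difference 0.03 ± 0.18, SD; exact p = 0.695). Of the light-chain bases, position 291 differed in 21.2% of unswitched and 23.9% of switched cells and position 290 in 2.58% and 4.66%, so these 2 bases enter the light-chain counts and the share of cells with no difference. Over V segments only, which leave both bases out, the chains together held 2.07 and 1.41, higher in 8 of 9 mice (0.66 ± 0.61, SD, exact p = 0.0117). The heavy-chain difference exceeded that of the light chain in 9 of 9 mice, by 0.64 ± 0.42 (SD, exact p = 0.00391). Counting each distinct pair of sequences once in a mouse and class brought the means to 3.37 and 3.22, and the difference of 0.15 ± 0.53 (SD) no longer passed the test (exact p = 0.395). In untreated mice the total was 3.14 ± 0.32 (SD, 6 mice) in unswitched and 3.13 ± 0.57 in switched cells. Whether the class difference differed with treatment was tested directly, with a difference of 0.68 mutations (exact permutation p = 0.0438).

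The 5 heavy-chain bases with the highest share of mutated cells in treated mice, averaged over mice and classes, lie in 3 stretches of the B1-8hi chain, printed because the class difference is in this chain. Positions count from 1 at the first base of framework 1, capitals mark the 5 bases, and the letters are the most frequent heavy-chain sequence on day 7.
Heavy chain 78 to 105: ctacaccttcaccaGCtacttgatgcac
Heavy chain 183 to 210: tgagaagttcaagaGcaaggccacactg
Heavy chain 300 to 327: ttactacggtagtaGCtactttgactac
The contigs name the V segment IGHV1-72, and the first and second stretch lie between frameworks 1 and 3 of the assembled chain, the third in the third complementarity-determining region. None of the stretches could be placed at 1 site of chromosome 12 of GRCm39, where the first and the third had 0 exact matches and the second had 6. Position 92 was mutated in 26 of 349 unswitched cells (7.45%) and 126 of 3518 switched cells (3.58%), and position 93 in 7.74% and 4.49%. Position 197 was mutated in 8.88% and 5.46%. Positions 314 and 315 were closer, at 8.31% against 6.54% and 8.88% against 7.02%. The share was higher in unswitched cells in 7 of 9 mice at positions 92, 93, 197 and 314 and in 5 of 9 at position 315. No test was made of single positions. Of 285 distinct sequence pairs in unswitched and 2187 in switched cells, counted within mice, 27 occurred in both, which is 9.47% of the first and 1.23% of the second.

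Gene expression was compared within mice on UMIs summed per mouse and class, with edgeR's quasi-likelihood test and Benjamini-Hochberg adjustment over 9273 genes, and positive log2 differences mean higher in unswitched cells. Expression differed between the classes in 1148 genes (12.4% of those tested), 592 higher (6.38%) and 556 lower (6%) in unswitched cells. The list counts of the class comparison below are to be read beside these shares. The median log2 difference over all genes was 0.01. Phase and UMI content moved with the class, as given above. In cells of 1 phase alone the numbers higher and lower were 83 and 50 in S (6 mice), 124 and 85 in G2/M (6 mice), and 1 and 0 in G1 (5 mice, 4372 genes). Of the 1148 genes, 1066 of 1083 tested kept their direction in S, 1093 of 1115 in G2/M, 598 of 901 in G1 and 1083 of 1086 in thinned cells, where 165 genes were higher and 133 lower. These settings reuse part of the counts that called the genes, so a shared direction is in part built in. Leaving out phases or UMIs also removes counts, and the part of either in the class difference was not tested.

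Among called genes with an average log2 CPM over 4 and the same sign in both experiments, those highest in unswitched cells were Il4i1, Slfn2 and Cd72. Among called genes below that level, Bcl2 differed by more (2.13) and is given with its list. Slfn2, a Schlafen family gene tied to lymphocyte quiescence (chr11:82955609-82961504, plus strand), stood at 43.7 to 125 CPM in unswitched sums (median 60.8) and 12.6 to 37.7 in switched sums (median 19.5). The classes did not overlap, and the log2 difference was 1.86 ± 0.13 (SE), or 3.62-fold (adjusted p = 1.51e-14). Cd72, an inhibitory co-receptor of the B cell receptor (chr4:43446431-43455129, minus strand), was at 70.7 to 279 CPM (median 91.2) against 12.5 to 51.7 (median 42.9). It did not overlap either, with a log2 difference of 1.79 ± 0.15 (SE, adjusted p = 1.06e-11). Il4i1, a secreted L-amino acid oxidase induced by IL-4 and CD40 signals (chr7:44465354-44490233, plus strand), ran from 21.5 to 373 CPM (median 73.3) against 17.1 to 45.7 (median 28.8). Its ranges overlapped, and it was higher in 8 of 9 mice, by 1.88 ± 0.19 (SE, adjusted p = 6.12e-10).

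Foxp1, a transcription factor of resting B cells, was the most even of the leading genes. It stood at 281 to 403 CPM in unswitched sums (median 378) and 162 to 193 in switched sums (median 178), with no overlap and a log2 difference of 1.11 ± 0.06 (SE, adjusted p = 5.7e-18). Nt5e, which encodes the ectonucleotidase CD73 found on memory precursors, was at 29.7 to 50.03 against 13.9 to 25.4 CPM, again without overlap (1.21 ± 0.14, SE, adjusted p = 1.98e-08). Apoe, the lipid carrier apolipoprotein E, was at 238 to 742 against 80.7 to 267 CPM and higher in 9 of 9 mice (1.32 ± 0.08, SE, adjusted p = 4.77e-16). The 4 others of the 10 largest above that level were Egr1, an immediate early factor induced by receptor signals (1.35), Cacna1e, a voltage-gated calcium channel subunit (1.29), Gm8369 (1.28) and Fcer2a, which encodes the low-affinity IgE receptor CD23 (1.11).

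**Figure D3:**
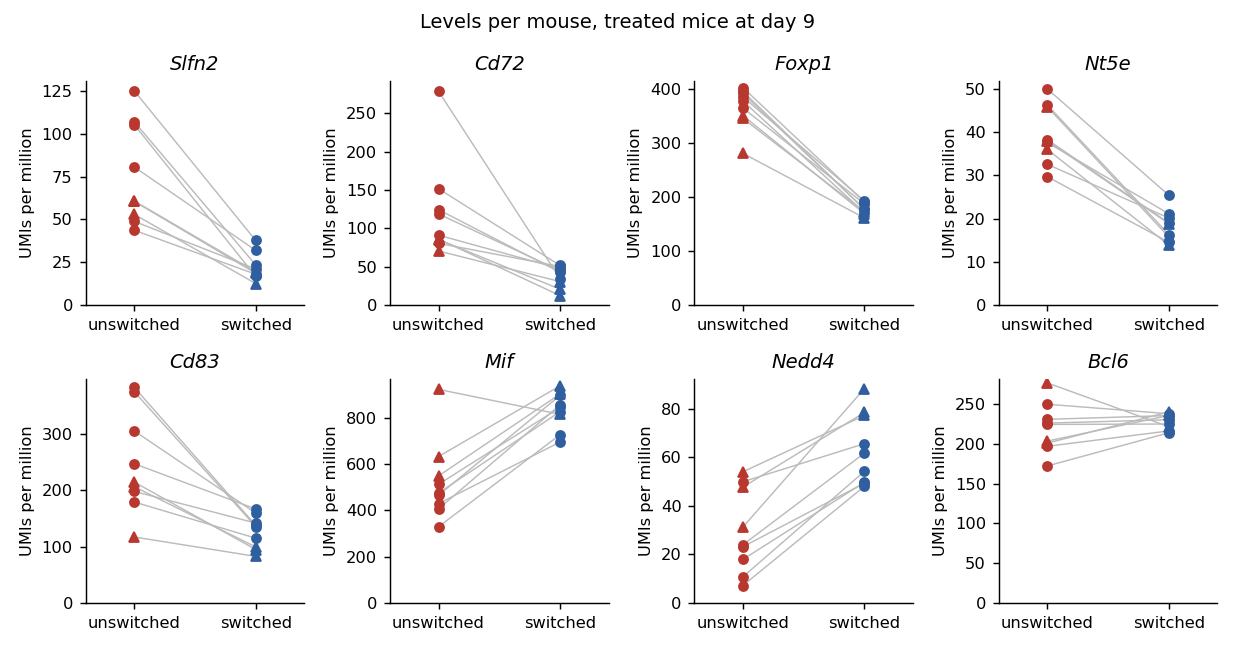
Level in CPM (vertical axes, from 0) of 8 genes in unswitched (red) and switched (blue) cells of the 9 treated mice, with a grey line for each mouse, circles for the larger and triangles for the smaller experiment. Slfn2, Cd72, Foxp1 and Nt5e do not overlap between the classes, Cd83 is higher in unswitched cells of all 9 mice, Mif and Nedd4 are lower in 8 and 9 mice, and Bcl6 lies at 172 to 277 against 214 to 240.

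The 10 genes furthest in the other direction, chosen above the same level, had 41 to 811 UMIs in all unswitched cells. Nedd4, a ubiquitin ligase, stood at 7.15 to 54.0 CPM in unswitched sums (median 23.9) and 48.1 to 88.4 in switched sums (median 61.7). It was lower in 9 of 9 mice, by 0.90 ± 0.14 (SE) on the log2 scale (adjusted p = 6.16e-06), and the ranges met only at their ends. Slpi, a secreted protease inhibitor, varied the most, at 10.7 to 811 against 106 to 911 CPM, and was lower in 8 of 9 mice (-1.19 ± 0.29, SE, adjusted p = 0.00341). Abr, a regulator of small GTPases, was lower in 8 of 9 mice (-0.78, adjusted p = 8.57e-05). The other 7 were Emb, Sbf2, Elovl6, Msto1, Commd9, Bag2 and Dlgap2, with log2 differences of -0.93 to -0.76 and adjusted p of 0.00493 to 0.0216, each lower in 7 to 9 mice.

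Genes of antigen presentation were higher together. Of 15 genes of MHC class II presentation, 12 were higher and none lower in unswitched cells, with a median log2 difference of 0.38 against 0.01 over all genes. H2-Oa, a subunit of the peptide-exchange inhibitor H2-O, stood at 85.6 to 235 against 52.4 to 131 CPM and was higher in 9 of 9 mice (0.77 ± 0.07, SE, adjusted p = 4.48e-10). Its partner H2-Ob differed by 0.46, Ifi30, a lysosomal thiol reductase, also by 0.46, and H2-DMb2, of the peptide-loading complex, by 0.45. H2-Eb1, a chain of the MHC class II molecule itself, was at 1323 to 2951 against 1172 to 2005 CPM, higher in 8 of 9 mice (0.38 ± 0.05, SE, adjusted p = 9.31e-08). Ciita, the transcriptional activator of these genes, differed by 0.38. Ly75, which encodes DEC-205 and belongs to this list, stood at 48.4 to 111 against 52.3 to 68.0 CPM and did not pass the test (0.28 ± 0.11, SE, adjusted p = 0.101). The list's median was positive in each phase alone (0.31 in G1, 0.27 in S and 0.17 in G2/M), with 0, 6 and 4 of 15 past the threshold. It was 0.33 in thinned cells, where 11 of 15 passed, and 0.22 in the smaller experiment, where 3 did.

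Targets and members of the CD40 and NF-kB pathway were also higher. Of 18 tested, 13 were higher and none lower, with a median of 0.57. The median was 0.54 in G1, 0.32 in S and 0.51 in G2/M cells, where 0 of 14, 3 of 17 and 5 of 18 passed. It was 0.46 in thinned cells (5 of 17) and 0.51 in the smaller experiment (6 of 18). Cd83, a surface marker of light-zone cells, stood at 117 to 383 CPM (median 215) against 82.6 to 167 (median 136), higher in 9 of 9 mice (1.02 ± 0.08, SE, adjusted p = 7.4e-12). The survival gene Bcl2l1 differed by 1.03, the NF-kB inhibitor Tnfaip3 by 0.99 and the survival gene Bcl2a1d by 0.86. Relb, an NF-kB subunit of the non-canonical arm, was at 23.9 to 46.5 against 15.02 to 28.3 CPM and higher in 9 of 9 mice (0.83). Of 20 light-zone and activation genes 11 were higher and 1, Lmo2, a GC transcription cofactor, was lower (median 0.54). Bcl2a1d, Cd40, Cd83, Nfkbia and Rel are counted among the higher genes of both this and the NF-kB list. Myc itself, which belongs to the light-zone list, did not pass the test at 16.1 to 47.7 against 26.5 to 45.6 CPM (-0.00 ± 0.14, SE, adjusted p = 0.996).

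Receptor signalling genes were higher in part, with 11 of 26 higher, none lower and a median of 0.15. Beside Cd72 these included the kinases Blk (0.62, higher in 8 of 9 mice) and Prkcb (0.52, 9 of 9, no overlap) and the factor Nfatc1 (0.52). The median of this list was 0.20 in S and 0.13 in G2/M but -0.08 in G1, where none of 25 tested passed. Lck, a kinase of T cells that was placed in the T cell list, was at 55.1 to 161 against 42.04 to 64.7 CPM and higher in 9 of 9 mice (0.83 ± 0.10, SE). It had 399 UMIs in unswitched cells, while Cd3d had 2 and Cd3e and Cd3g none.

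Of 16 tested memory-precursor genes 9 were higher and none lower (median 0.76). Bcl2, a survival gene, stood at 2.57 to 23.9 against 1.09 to 3.12 CPM and was higher in 9 of 9 mice (2.13 ± 0.35, SE, adjusted p = 2.1e-05). It rested on 40 UMIs in unswitched cells and has no value for the larger experiment alone (1.47 in the smaller). Ccr6, a chemokine receptor, differed by 1.81 with 43 UMIs in unswitched cells and was higher in 7 of 9 mice. Zeb2, a transcription factor, differed by 1.66 and Nt5e by 1.21. Of 11 tested naive or resting B cell genes 6 were higher and none lower (median 0.71), among them Cd55, a complement regulator (1.46, but 0.17 in the smaller experiment), Fcer2a, Gpr183, a receptor for oxysterols that guides B cells (0.98), and Klf2, a factor of lymphocyte trafficking (0.87). Klf2 was higher in only 6 of 9 mice, it was -0.15 in the smaller experiment alone and -0.41 in G2/M cells, and Gpr183 was -0.10 in G2/M cells. The median of the memory list was 0.17 in G1, 0.44 in S and 0.18 in G2/M cells and 0.32 in the smaller experiment. That of the resting list was -0.05 in G1 (4 of 9 positive), 0.27 in S, -0.06 in G2/M (4 of 9 positive) and 0.17 in the smaller experiment, where 1 of 11 passed. In cells with the B1-8hi pairing only, 5 of 15 memory genes and 4 of 11 resting genes passed (both medians 0.57). Kappa chains were found in 14 of 378 unswitched and 8 of 3703 switched cells, all outside that pairing. The summed level of the 12 resting B cell markers was 644 to 1433 CPM in unswitched and 557 to 736 in switched sums of treated mice. In untreated mice it was 799 to 1116 in unswitched and 819 to 1223 in switched sums.

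Of 14 GC identity genes 4 were higher and 2 lower, beside 6.38% and 6% over all genes, with a median of 0.05. Bcl6, the factor that maintains GC B cells, stood at 172 to 277 against 214 to 240 CPM (0.01 ± 0.07, SE, adjusted p = 0.958). S1pr2, a receptor that keeps cells in the GC, was at 104 to 183 against 152 to 192 CPM (-0.21 ± 0.08, SE, adjusted p = 0.0629). Rgs13, a regulator of chemokine receptor signals, differed by 0.73 and Ebf1, a B cell factor, by 0.37, while Nuggc and Gcsam, both GC-restricted genes, were lower (-0.27 and -0.26). Of 11 dark-zone genes 3 were higher, Foxp1, Foxo1 and Pafah1b3, and 6 lower, beside the same shares over all genes. Of the 6 lower ones 5 are genes of mitosis. Cxcr4, the receptor that draws cells into the dark zone, was at 70.7 to 158 against 79.9 to 126 CPM (0.03 ± 0.09, SE, adjusted p = 0.900).

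Of 25 genes of G2-M 16 were lower and none higher, with a median of -0.26. Aurka and Plk1, kinases of the mitotic spindle, differed by -0.56 and -0.52, and both were lower in 9 of 9 mice. Ccnb1, the cyclin of mitotic entry, differed by -0.51 and Cdc20, an activator of the anaphase-promoting complex, by -0.45. These genes overlap with those that assigned the phases, and within G2/M cells alone the list's median was -0.03 with none of 25 past the threshold. Among 28 tested genes of G1-S and replication 2 were higher and 3 lower, counts near the shares over all genes (6.38% and 6%). The higher ones were Ccnd2, a D-type cyclin (0.00 to 23.2 against 1.53 to 7.84 CPM; 1.23 ± 0.34, SE, adjusted p = 0.0113), and Cdkn1b, the cell-cycle inhibitor p27 (0.86, no overlap). Among the lower ones, Ccnd3, the D-type cyclin of dark-zone cycling, was at 261 to 382 against 344 to 432 CPM, lower in 9 of 9 mice (-0.21 ± 0.06, SE, adjusted p = 0.0103), and Tyms, which makes thymidylate, differed by -0.44 without overlap.

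Of 15 tested glycolysis genes 8 were lower and none higher (median -0.29). Pkm, pyruvate kinase, stood at 313 to 526 against 542 to 599 CPM without overlap (-0.46 ± 0.06, SE, adjusted p = 1.23e-06), and Ldha, lactate dehydrogenase, differed by -0.47. Of 18 oxidative phosphorylation genes 12 were lower and none higher (median -0.19), among them Atp5b, a subunit of ATP synthase, at 525 to 712 against 788 to 880 CPM without overlap (-0.31 ± 0.05, SE, adjusted p = 1.97e-05). Of 23 tested genes of Myc and ribosome biogenesis 8 were lower and 1, the Myc antagonist Mxd4, was higher (median -0.25). Npm1, a nucleolar chaperone, was at 1055 to 2589 against 1536 to 2691 CPM, lower in 8 of 9 mice (-0.41 ± 0.05, SE). This list's median was negative in S and G2/M cells alone (-0.19 and -0.22) but 0.32 in G1 cells, where none of 14 passed. It was -0.14 in thinned cells, where 1 of 22 passed, and -0.14 in the smaller experiment, where 0 of 24 did. The glycolysis median stayed between -0.29 and -0.18 in the 3 phases, where 0 of 9 passed in G1, 3 of 14 in S and 4 of 14 in G2/M cells. In the smaller experiment it was -0.23 (0 of 14 passed). The oxidative phosphorylation median was -0.06 in G1 (0 of 17 passed), -0.17 in S (1 of 18) and -0.14 in G2/M cells (0 of 18), and -0.20 in the smaller experiment (0 of 18).

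**Figure D4:**
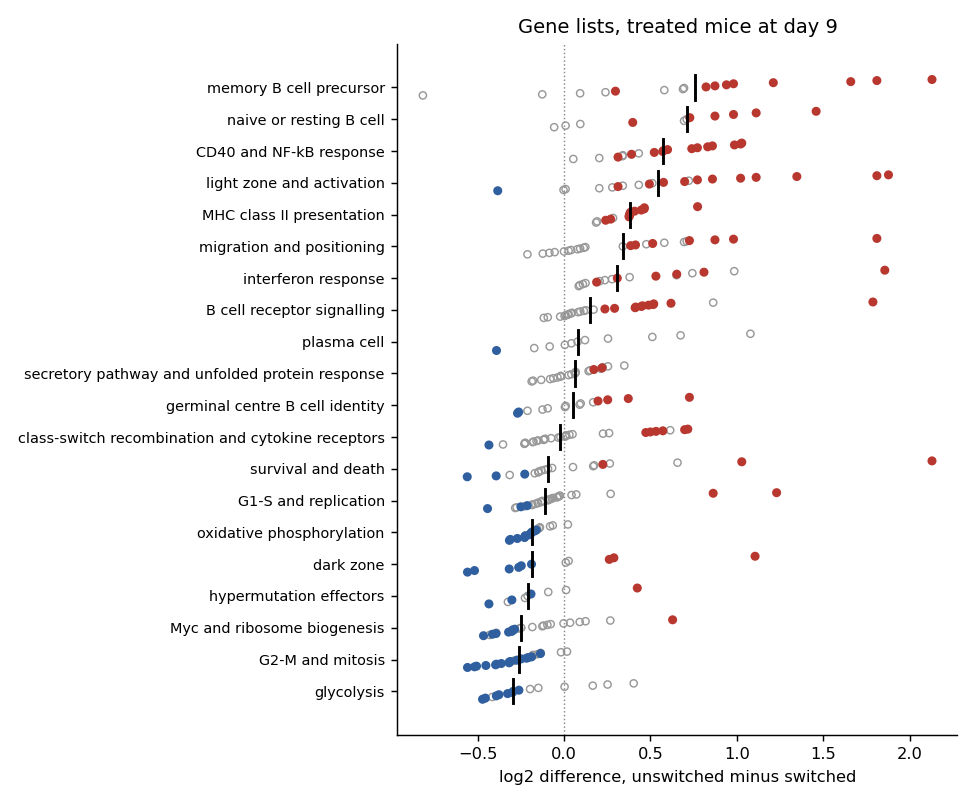
Log2 difference of unswitched minus switched cells in treated mice (horizontal axis) for each tested gene of the lists with at least 9 tested members, with lists ordered by their median (black bar). Filled points passed the adjusted threshold, red if higher and blue if lower in unswitched cells, and open points did not. Medians run from 0.76 for memory precursors to -0.29 for glycolysis.

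Of 29 tested genes of class-switch recombination and cytokine receptors 6 were higher and 1 lower (median -0.02), beside 6.38% and 6% over all genes. The higher ones were led by Ifngr2, Batf, a factor needed for switching, Il4ra, the IL-4 receptor chain, and Tgfbr2 (0.72, 0.70, 0.57 and 0.53). The lower one, the abasic-site endonuclease Apex1, differed by -0.43. None of the list was higher in G1, S or G2/M cells alone, and 0 of 29 passed in the smaller experiment. Among 9 hypermutation effectors Apex1, Hmces (-0.30) and Neil1 (-0.19), all acting on abasic or damaged bases, were lower. Apex2 was higher (0.42), so 1 was higher and 3 lower, beside the same shares over all genes. Of these 9 none passed in S cells, and 1 was lower in G2/M cells and in the smaller experiment. In thinned cells 1 was higher and 1 lower, and with DESeq2 0 were higher and 2 lower. Of 23 tested migration genes 7 were higher and none lower (median 0.34), but the median was -0.17 in G1 cells, 0.09 in S, 0.07 in G2/M and 0.08 in the smaller experiment, where 0 of 23 passed. In cells with the B1-8hi pairing only, 5 of 23 passed (median 0.15). Of 17 tested interferon response genes 6 were higher and none lower (median 0.31), led by Slfn2, Ifi203 (0.81), Ifi27l2a (0.65) and Irf9 (0.53). The median of that list was 0.02 in G1, 0.44 in S and 0.21 in G2/M cells and 0.28 in the smaller experiment, where 2 of 18 passed. Of 19 tested survival and death genes 3 were higher and 3 lower, beside 6.38% and 6% over all genes, and none passed in any phase alone or in the smaller experiment. The lower ones included Bid, a pro-apoptotic Bcl-2 family member (-0.39), and Birc5. Of 11 tested plasma cell genes none was higher and 1 was lower, beside 6.38% and 6% over all genes. The lower one was Jchain, which joins IgM and IgA polymers (733 to 1547 against 1130.1 to 2090.1 CPM, -0.39 ± 0.07, SE). Irf4 and Prdm1, factors of plasma cell fate, had 59 and 21 UMIs in unswitched cells and did not pass (0.51 and 1.08; adjusted p = 0.209 and 0.150). Of 21 secretory pathway genes 2 were higher, Pdia6 and Hspa5 (0.22 and 0.17), a share near the 6.38% over all genes, and 1 myeloid gene was tested, Cst3, at -0.01. The 4 light-chain constant genes of a further list had no UMIs in the counts used, so none could be tested.

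The class difference was then set against that of untreated mice of the same day, to ask whether it depended on treatment. A single fit over 15 mice tested the interaction of class and treatment, and a positive value means that the unswitched cells stood higher relative to switched cells in treated than in untreated mice. Of 9082 genes, 727 (8%) passed, 331 positive (3.64%) and 396 negative (4.36%). The list counts of interactions below are to be read beside these shares. The median over all genes was -0.00. The treated samples are the same as those above, so these values share them with the class comparison.

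Among positive genes, Fcer2a was at 177 to 278 CPM in unswitched and 146 to 309 in switched sums of untreated mice, and at 92.3 to 461 and 55.5 to 156 in treated ones. Its class difference was -0.05 without and 1.11 with treatment (interaction 1.14, adjusted p = 8.9e-06). Icosl, the ligand of the T cell co-stimulator ICOS, went from 0.06 to 1.26 (interaction 1.19), and Egr1 from 0.20 to 1.35 (interaction 1.15). Il4i1 and Slfn2 were higher in unswitched cells in both settings, by 0.45 and 0.82 without treatment, and by 1.88 and 1.86 with it (interactions 1.41 and 1.03). In thinned cells the interaction of Slfn2 was 0.53 and no longer passed (adjusted p = 0.210). Gsn, an actin-severing protein, and Cr2, the complement receptor CD21, differed by -1.04 and -1.02 between the classes of untreated mice and were higher in unswitched cells in 0 of 6. With treatment they were at 0.32 and 0.01 (interactions 1.35 and 1.004), and the interaction of Cr2 was 0.44 in thinned cells and no longer passed (adjusted p = 0.551). Btnl2, Pxdc1 and Klhl14 completed the 10 largest (1.23, 1.04 and 1.002).

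Among negative genes, Mif, a cytokine and Myc target, was at 391 to 989 CPM in unswitched and 453 to 740 in switched sums without treatment, and at 329 to 924 and 696 to 940 with it. Its class difference turned from 0.34 to -0.61 (interaction -0.96, adjusted p = 8.9e-06). Srm, which makes spermidine, turned from 0.44 to -0.61, Ppa1, a pyrophosphatase, from 0.55 to -0.62, and Eif2b3, of the initiation factor eIF2B, from 0.47 to -0.64. Gnaz, a G protein subunit, had the largest negative interaction by the same ranking, at -1.19, with 1.27 without and 0.09 with treatment. Ifrd2, Mettl1, Wdr18 and Polr1a were at -1.09 to -0.95.

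Of the genes of Myc and ribosome biogenesis, 15 of 23 had a negative interaction and 1, Mxd4, a positive one, and the list's median class difference was 0.26 without and -0.25 with treatment in the 22 genes tested in all fits. Myc was higher in unswitched cells in 6 of 6 untreated mice (33.2 to 67.1 against 21.9 to 52.5 CPM; 0.69) and at -0.00 with treatment (interaction -0.70, adjusted p = 0.0183). The Myc interaction passed in only 3 of 7 alternatives (-0.74 to -0.51, adjusted p up to 0.475). For MHC class II presentation 11 of 15 interactions were positive, with medians of -0.02 without and 0.38 with treatment. Receptor signalling had 10 of 26 positive (medians -0.08 and 0.15), and light-zone genes 8 of 20 positive and 1, Myc, negative (medians 0.18 and 0.54). G2-M genes had 14 of 25 negative (medians 0.07 and -0.26) and glycolysis 6 of 14 negative (medians 0.06 and -0.30). The CD40 and NF-kB list had 3 of 18 positive, beside 3.64% over all genes. Of its 18 members 15 were already above 0 without treatment (medians 0.16 and 0.57). Of that list, Cd83 turned from 0.05 to 1.02 (interaction 0.96). Ccnd3, of the G1-S and replication list, turned from 0.16 to -0.21 (interaction -0.39). The Ccnd3 interaction passed in 5 of 7 alternatives and was -0.21 in thinned cells (adjusted p = 0.423). In thinned cells the interaction of Mxd4 was 0.10 and did not pass either (adjusted p = 0.898). Of 15 tested memory-precursor genes 1 had a positive interaction, a count near the 3.64% over all genes. It was Bach2, a factor that restrains plasma cell fate (0.48). Cacna1e, Nt5e, Zeb2 and Ccnd2 had class differences of 1.01, 0.70, 1.67 and 1.35 in untreated mice, and their interactions did not pass (adjusted p = 0.515, 0.101, 0.975 and 0.921). UMI content and phase also differed by class with treatment and moved with these genes, and their part was not tested. In thinned cells 78 genes were positive and 82 negative of 7777, and 8 of the 20 interactions named by rule no longer passed, among them Slfn2, Cr2, Gnaz, Eif2b3, Ifrd2, Mettl1 and Polr1a.

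**Figure D5:**
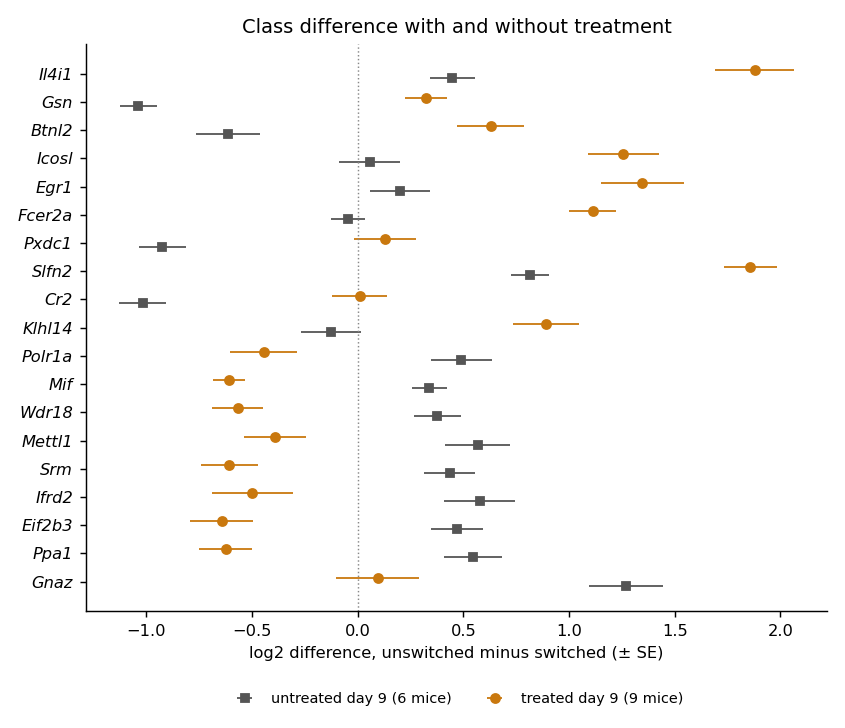
Log2 difference of unswitched minus switched cells with its SE (horizontal axis) for the 10 largest positive interactions and 9 of the 10 largest negative ones, ordered by the interaction, in untreated (grey squares, 6 mice) and treated mice (orange circles, 9 mice) of day 9. All 10 genes at the top lie further right with treatment, and the 9 at the bottom further left.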

How the data were processed

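Single-cell 5′ RNA and V(D)J libraries of 2 pools were used, each a pool of hashtagged mice. The authors deposited UMI counts per gene and cell from Cell Ranger (8.0.1 in the file headers, 6.0.1 in the submitters' processing notes, which also name Seurat 5.1.0 and build mm39), and a table of assembled contigs. Strand use in counting is not given in the sources used here.

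From these counts, cells were assigned to mice with HTODemux (Seurat 5.3.0, positive quantile 0.99) and cells with fewer than 200 detected genes, or with 10% or more of their UMIs mitochondrial, were dropped. No doublet caller was run beyond the hashtags. Raw counts were summed per mouse and class (at least 10 cells) and tested with edgeR 4.0.16 (TMM, quasi-likelihood, R 4.3.3), with the mouse as a block because both classes came from the same animal, and a threshold of 0.05 after Benjamini-Hochberg adjustment. Deviations of same-mouse classes correlated at -0.07 to 0.21 over 2839 genes. The fit of class by treatment used all 15 mice. Levels are TMM-scaled CPM. Genes of the heavy-chain locus were not analysed here, and light-chain constant genes had no UMIs in the counts used. UMIs per cell, phase scores and thinning used all genes. Phases came from Seurat's S and G2/M gene scores, also after thinning to 5447 UMIs per cell, the 10th percentile. Mutations were base differences from the most frequent B1-8hi sequence of day 7. Values per mouse were compared by exact sign-flip tests or by exact relabelling within experiments, two-sided, with Python 3.11.15, numpy 2.4.6, pandas 2.3.3 and scipy 1.17.1. Figures used matplotlib 3.10.9. Scripts were tested on simulated data.

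Named genes were the 10 largest differences in each direction among called genes whose average log2 CPM exceeded 4 and whose sign was shared by both experiments. Added to these were up to 4 called members of each list with the largest absolute change, and genes fixed by name. Members and lists were chosen with earlier results of these data known. Lists share members, so their counts are not separate. Gpr183 and Klf2, for example, stand in the memory, resting and migration lists. Alternatives were DESeq2 1.42.0, other cell, contig and count filters, IgG cells alone as the switched class, thinned cells, single phases, each experiment alone, no block, and each mouse left out in turn. Mice are separate animals, and intervals between them include counting error of unequal size. Some genes that met the naming rule are not reported here. A planned test of the unswitched share is not printed, because the share rests on the calls that define the classes.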

Additional observations from a re-analysis of the deposited data

Results flagged for a closer look

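In 47 groups of values checked for a sample far from the others, 6 had one, by the gap from the highest or lowest sample to its neighbour over the whole range, set against Dixon's critical value for a threshold of 0.05. By that threshold chance gives about 1 in 20. They were the unswitched share of 51.5% in 1 treated mouse of day 10, a light-chain mutation difference of -0.39 in treated mouse 5, a difference in log2 UMIs of 0.31 in 1 untreated mouse of day 9, and log2 level differences (with 1 CPM added) of -3.57 for Emb, 0.56 for Elovl6 and -4.31 for Commd9 in 1 treated mouse each.

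The class difference itself differed between treated and untreated mice of day 9 by 0.68 mutations per cell, 0.62 heavy-chain mutations, 20.3 points of G1 cells, -18.4 points of G2/M cells, -0.56 in log2 UMIs, -743 detected genes and 0.20 points of mitochondrial UMIs, by exact relabelling. Cells had been selected on the last 2 of these values, so their differences are a description. In edgeR's quasi-likelihood test it differed for 331 genes upwards and 396 downwards. The largest upward values were Il4i1 1.41, Gsn 1.35, Btnl2 1.23, Icosl 1.19, Egr1 1.15, Fcer2a 1.14, Pxdc1 1.04, Slfn2 1.03, Cr2 1.004 and Klhl14 1.002 on the log2 scale. Among the largest downward values were Gnaz -1.19, Ppa1 -1.18, Eif2b3 -1.13, Ifrd2 -1.09, Srm -1.05, Mettl1 -0.97, Wdr18 -0.96, Mif -0.96 and Polr1a -0.95.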

How the results depend on the processing

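Genes higher and lower in unswitched cells numbered 592 and 556. They numbered 1 and 0 in G1 cells, 83 and 50 in S cells, 124 and 85 in G2/M cells, 165 and 133 in thinned cells and 85 and 38 in the smaller experiment alone, where fewer cells or UMIs entered, and 853 were lower with no filter on low counts. Leaving out 1 mouse gave 437 to 594 higher and 425 to 601 lower. DESeq2 gave 507 and 431. For class by treatment, thinned cells gave 78 higher and 82 lower, and a minimum of 30 cells (12 mice) gave 251 lower. DESeq2 gave no adjusted p for 4402 of these 9082 genes. Without the replicate block, which pairs the classes of a mouse, the class counts were 689 and 621, those by treatment 306 and 357, and the mutation difference was 0.69 (exact permutation p = 0.00184).

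The mutation difference was 0.026 in light chains alone (exact p = 0.695), 0.15 with distinct pairs counted once (exact p = 0.395) and 0.89 with the median per mouse (exact p = 0.0625), and 0.55 to 0.81 with 1 mouse left out. The S difference was -3.60 points with no filter on cells (exact adjusted p = 0.0234). In the smaller experiment alone the differences were 13.03 points for G1 (exact adjusted p = 0.375), -8.53 for G2/M (0.5), where 3 mice cannot reach the threshold, and -12.0 for the unswitched share.

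Over 79 named class genes, 1536 values under alternatives kept direction and side of the threshold, 304 lost the call and 15 changed sign. The last were, in G1 cells, Nfatc1 -0.13, Apex1 0.73, Mxd4 -0.073, Bop1 0.25, Npm1 0.35, Gar1 0.063, Rrm1 0.12, Bid 0.026, Cycs 0.24, Ndufv1 0.015, Pgam1 0.088 and Pdia6 -0.013. In G2/M cells they were Gpr183 -0.10 and Klf2 -0.41, and in the smaller experiment Klf2 -0.15. Of other genes named in the text, Ccnd3 was 0.18, Mif 0.52, Srm 0.33, Wdr18 0.20, Ciita -0.09, Bach2 -0.23 and Gsn -0.50 in G1 cells. The cause was not tested. Leaving out 1 mouse ended the calls of Emb, Msto1 and Sbf2 (mouse 8), Klf2 (mouse 4), Commd9 (mice 5 and 6), Dlgap2 (2 and 5), Bcl2l1 (1 and 5), Ccnd2 (5 and 8) and, with any of 5 or 6 mice, Apex2, Neil1, Ndufv1, Pdia6 and Hspa5.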
